A study of Mus musculus with 4 samples.

Results

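The miR-181 family was followed through 4 small RNA libraries of cultured mouse synovial fibroblasts, the connective tissue cells that line the joint. Members were the listed miRNAs whose name, without the species prefix, the arm mark and the copy number, reads miR-181a, miR-181b, miR-181c or miR-181d. The rule found 6 names among the 590 miRNA names listed in any library: mmu-miR-181a, mmu-miR-181b, mmu-miR-181c and mmu-miR-181d, which come from the 5p arm of their hairpins, and the passenger arms mmu-miR-181a-1* and mmu-miR-181a-2*. All 6 names were listed in all 4 libraries, but miR-181a-2* held only 14 and 4 matches in the TghuTNF libraries and 4 and 3 in the WT libraries, and it did not pass the filter on low counts. The other 5 names passed it and were tested.

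The series compared fibroblasts of TghuTNF mice, which carry a human TNF transgene and serve as a model of rheumatoid arthritis, with fibroblasts of their wild-type (WT) littermates, with 2 biological replicates of each. All mice were 8 weeks old and of the mixed CBA/J * C57BL/6/J background, and cells were digested from the hind joints and kept through 4 culture passages before RNA was extracted. No source used here gives the promoter that drives the transgene or the name of its line, or says whether mice were pooled. By the labels' cytometry the cultures were 80 to 90% CD90.2 positive and under 1% positive for the macrophage marker Mac1. The libraries held 27362819 and 22959408 miRNA matches in TghuTNF and 16680860 and 26542371 in WT, of which 66.1 to 70.5% had no mismatch.

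A miRNA guides Argonaute proteins to mRNAs that pair with its seed, the bases near its 5′ end, and lowers their translation and stability. The miR-181 family is best known from lymphocytes, where miR-181a tunes the sensitivity of T cells to antigen, and from the vessel wall, where miR-181b dampens NF-kB signalling by targeting an importin. TNF, the cytokine whose human gene these mice carry, is a main activator of NF-kB.

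The mature sequences are shown because the counts of the members depend on how little they differ. They are RefSeq's for build GRCm38.p6, written 5′ to 3′, with the seed (bases 2 to 8) in capitals.
miR-181a: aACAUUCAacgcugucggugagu
miR-181c: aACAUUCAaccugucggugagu
miR-181b: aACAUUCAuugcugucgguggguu
miR-181d: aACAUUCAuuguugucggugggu
miR-181a-1*: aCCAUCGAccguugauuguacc
miR-181a-2*: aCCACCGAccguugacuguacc

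The 4 members of the 5p arm had the same seed, and no other name among the 1679 mature miRNA names of that table had it. Counting positions from 1 at the 5′ end, miR-181b and miR-181d differed by the single substitution C12U over the length of miR-181d, and miR-181b ran 1 base longer. From miR-181a, miR-181b differed by A9U, C10U and A21G, and miR-181d by A9U, C10U, C12U and A21G. Removing base 11 of miR-181a gave miR-181c, so those sequences had their first 10 and last 12 bases in common. The passenger arms had a seed of their own each and differed from each other by U5C and U16C.

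The genes lie in pairs at 3 places of the mouse genome (GENCODE M21, GRCm38). Mir181a-1 (chr1:137966455-137966541) and Mir181b-1 (chr1:137966639-137966718) lie 97 bases apart on the plus strand, overlap an exon of the long non-coding RNA A430106G13Rik and lie in an intron of Gm4258. Mir181a-2 (chr2:38852735-38852810) and Mir181b-2 (chr2:38853830-38853918) lie 1019 bases apart in an intron of Nr6a1, which encodes an orphan nuclear receptor and runs on the opposite strand. Mir181d (chr8:84178716-84178787) and Mir181c (chr8:84178873-84178961) lie 85 bases apart in an intron of Nanos3, a germ cell gene, on its own strand. Mature miR-181a and miR-181b can therefore come from either of 2 hairpins, and miR-181c and miR-181d each from 1. The hairpins of Mir181a-1, which gives both tested arms, and of Mir181d are shown with both annotated mature arms in capitals.
Mir181a-1: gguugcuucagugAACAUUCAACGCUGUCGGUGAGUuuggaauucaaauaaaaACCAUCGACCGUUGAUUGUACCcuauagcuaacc
Mir181d: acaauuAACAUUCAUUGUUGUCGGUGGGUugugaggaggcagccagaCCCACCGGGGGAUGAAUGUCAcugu

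By total matches, which hold reads with up to 2 mismatches, none of the 5 tested members passed the test between genotypes. By perfect matches alone, miR-181d was 2.22-fold higher in TghuTNF fibroblasts, while miR-181a and miR-181b did not pass the test. The surplus of reads perfect for miR-181c over those perfect for miR-181a, which has no test, was 1.97 times as large in TghuTNF as in WT. Levels below are counts per 1000000 matches scaled by the trimmed mean of M-values (TMM-scaled CPM), unless another scale is named, and differences are TghuTNF minus WT on the log2 scale.

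miR-181a had 3086 and 3169 TMM-scaled CPM of total matches in TghuTNF and 2621 and 2960 in WT. Both TghuTNF libraries lay above both WT libraries, but the difference of 0.16 ± 0.16 (log2, SE) did not pass the test (adjusted p = 0.529, edgeR's quasi-likelihood test, 95% interval -0.19 to 0.52). miR-181b had 1204 and 1154 TMM-scaled CPM in TghuTNF, against 1131 and 1114 in WT. Its difference was 0.07 ± 0.16 (adjusted p = 0.809, edgeR, interval -0.29 to 0.43). miR-181d had 834 and 792 TMM-scaled CPM in TghuTNF and 783 and 767 in WT, a difference of 0.07 ± 0.17 (adjusted p = 0.820, edgeR, interval -0.31 to 0.45). The libraries stood in the same order for miR-181b and miR-181d, with TghuTNF replicate 1 highest and WT replicate 2 lowest.

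Of the 5 tested members, 0 were called at an adjusted p below 0.05, beside 13.3% of the 442 miRNAs tested (21 higher and 38 lower). Of the 5, 0 also had an unadjusted p below 0.05 in edgeR, and DESeq2 called 0. The members' median difference was 0.07, against 0.01 over all 442. The genotypes did not overlap for 5 of 5 members, beside 60.6% of the tested miRNAs. TghuTNF was higher for the 4 members of the 5p arm, whose totals were not independent of each other, and lower for miR-181a-1*. For the 4 members of the 5p arm the intervals reach up to 0.52 on the log2 scale, so differences inside them were not detectable with 2 libraries a genotype.

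**Figure D1:**
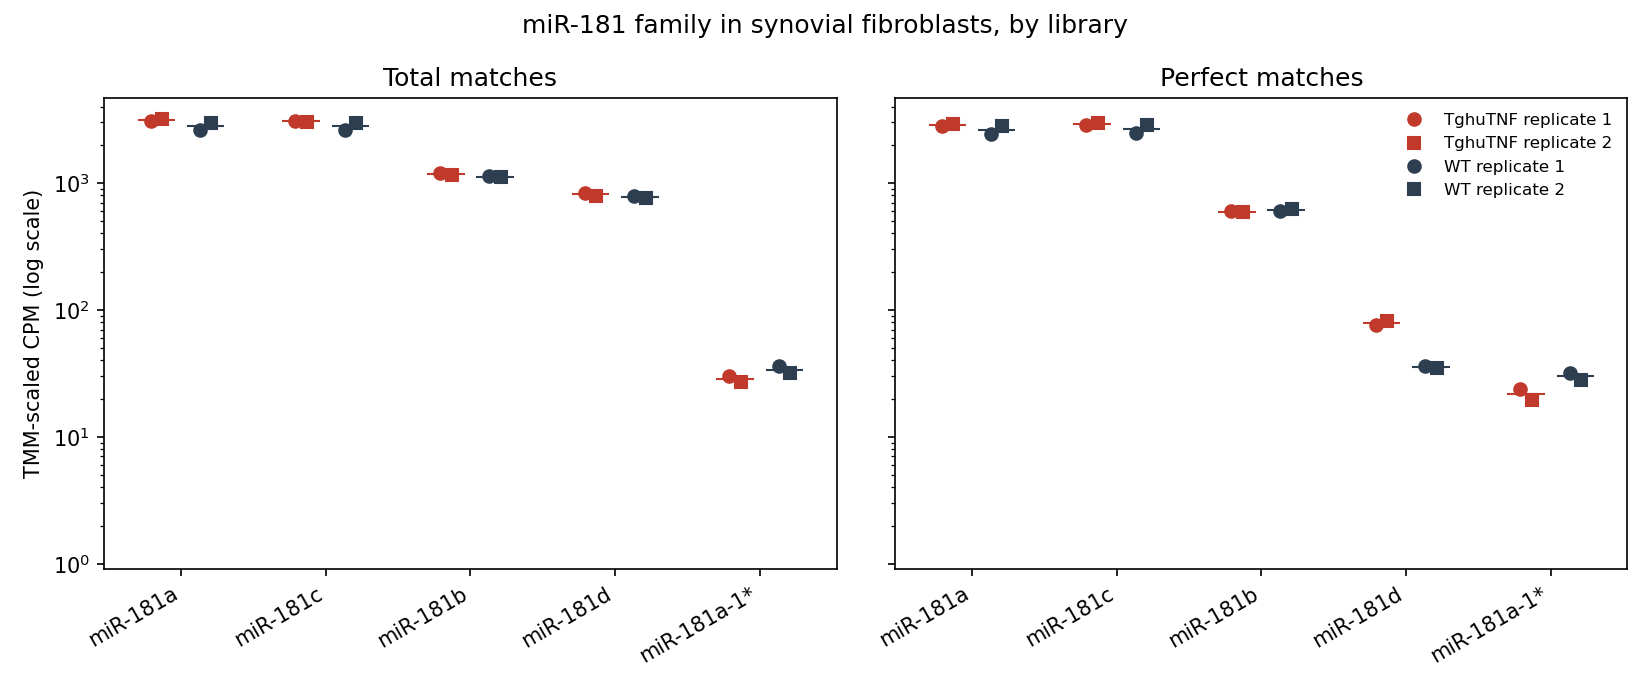
TMM-scaled CPM (log scale) of the 5 tested members in each library, by total matches (left) and perfect matches (right), with TghuTNF left of WT for each member and a line at the mean of each genotype. In perfect matches of miR-181d, 75.9 and 81.5 CPM in TghuTNF stand above 36.0 and 34.9 CPM in WT. In those of miR-181a-1*, which was not called, 23.8 and 19.7 CPM in TghuTNF stand below 31.9 and 28.0 CPM in WT. For miR-181a, miR-181b and miR-181c the genotypes lie closer together in both panels.

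The totals of the 4 members of the 5p arm were not independent of each other. The total of miR-181c differed from that of miR-181a by -9 and -3124 matches in TghuTNF and by -28 and -16 in WT, out of 43036 to 85178 matches of miR-181c. Perfect matches of miR-181c were also close to those of miR-181a, with 55319 and 44792 for miR-181c against 54311 and 43824 for miR-181a in TghuTNF, and 28301 and 53085 against 27944 and 52559 in WT. The rule by which a read was matched to several names is not given in the sources used here, so whether these are the same reads under both names could not be checked. Compared without a gap, the sequences of miR-181a and miR-181c differ at 11 positions. Whether a match listed with no mismatch covers the full mature sequence could therefore not be taken as given, for miR-181d as well. The fit of miR-181c (0.13 ± 0.16, adjusted p = 0.625, edgeR) is therefore not counted as separate evidence beside that of miR-181a.

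Most matches of miR-181d were imperfect. Only 6.42% and 6.92% of its matches in TghuTNF, and 3.23% and 3.12% in WT, had no mismatch, whereas 54.6 and 54.8% in TghuTNF and 56.4 and 58.1% in WT had 1. The matches of miR-181d with 1 mismatch numbered 1.08 and 1.09 times the perfect matches of miR-181b in TghuTNF, and 1.05 and 1.04 times in WT, beside the 1 substitution between the sequences. For miR-181b the perfect share was 35.0 and 34.3% in TghuTNF and 37.3 and 38.6% in WT. For miR-181a it was 63.8 and 61.4% in TghuTNF, and 64.9 and 65.2% in WT.

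**Figure D2:**
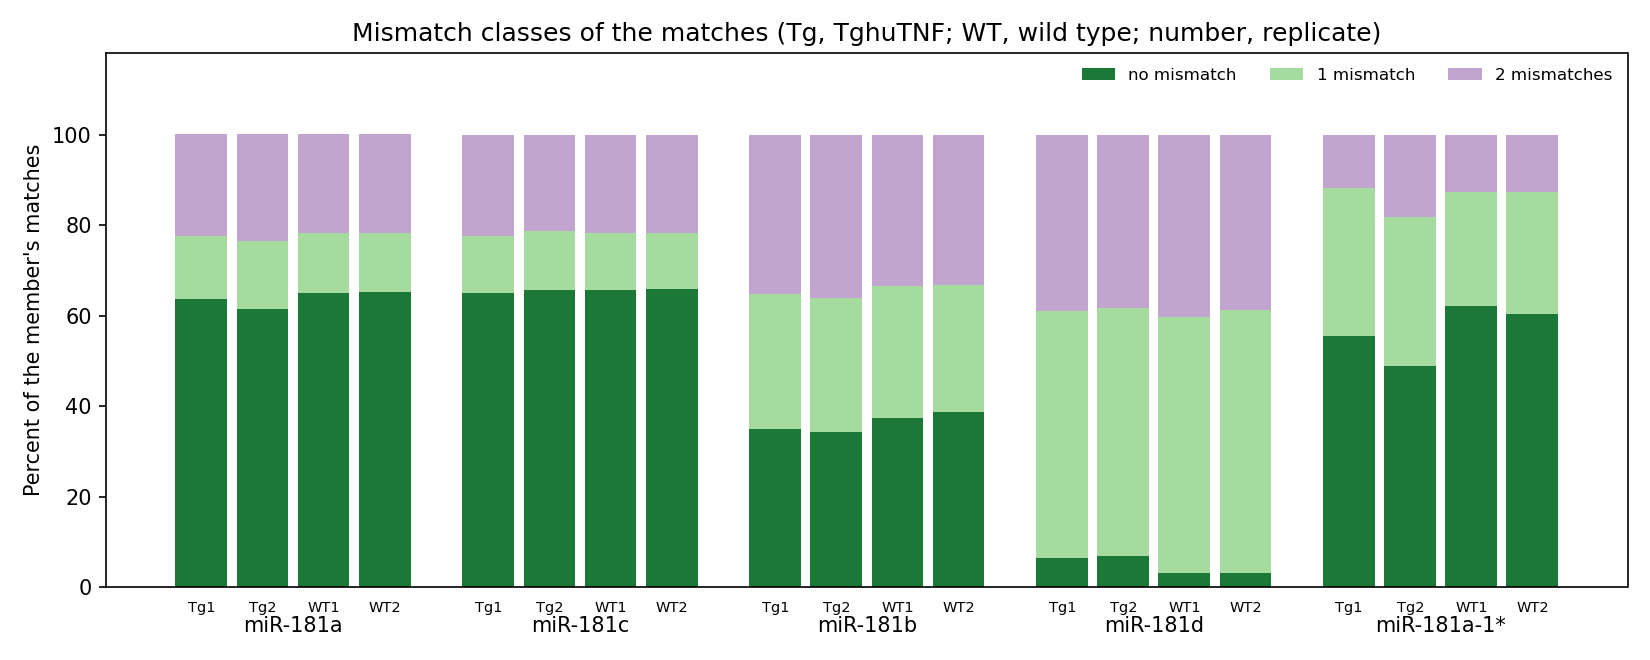
Percent of each member's matches with 0, 1 and 2 mismatches in each library, with the TghuTNF libraries left of the WT libraries. The perfect class makes up 61.4 to 65.9% of the matches of miR-181a and miR-181c but at most 6.92% of those of miR-181d, whose largest class is 1 mismatch in every library.

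Perfect matches were therefore fitted on their own. miR-181d had 1479 and 1234 perfect matches in TghuTNF and 415 and 651 in WT. Scaled for depth these were 75.9 and 81.5 TMM-scaled CPM of perfect matches in TghuTNF (mean 78.7 ± 3.92, SD, n = 2) and 36.0 and 34.9 in WT (35.4 ± 0.828, SD, n = 2). Both TghuTNF libraries stood at more than the sum of both WT libraries, and within each genotype the libraries differed little. miR-181d rose in TghuTNF by 1.15 ± 0.23 on the log2 scale (adjusted p = 0.00963 over 380 miRNAs, edgeR, interval 0.63 to 1.67), a 2.22-fold difference. The call was lost without WT replicate 1 (1.20, adjusted p = 0.0950, edgeR) and without WT replicate 2 (1.12, adjusted p = 0.136, edgeR), which each leave 1 WT library. Ordered from the most positive difference to the most negative, miR-181d ranked 20 of 380.

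The other members did not pass the test by perfect matches. miR-181a had 2788 and 2893 TMM-scaled CPM of perfect matches in TghuTNF and 2426 and 2814 in WT, a difference of 0.12 ± 0.17 (adjusted p = 0.701, edgeR, interval -0.26 to 0.49). Its genotypes overlapped, since WT replicate 2 lay above TghuTNF replicate 1. miR-181b had 598 and 589 in TghuTNF and 602 and 628 in WT, a difference of -0.05 ± 0.18 (adjusted p = 0.872, edgeR, interval -0.46 to 0.36). The upper bounds of both intervals lie under the lower bound of that of miR-181d. miR-181c, as listed, differed by 0.13 ± 0.17 (adjusted p = 0.672, edgeR).

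In perfect matches 1 of the 5 tested members was called, beside 13.2% of the 380 miRNAs tested, and it was called higher, as were 5.00% of the 380. The genotypes did not overlap for 3 of 5 members (miR-181d, higher, and miR-181b and miR-181a-1*, lower in TghuTNF), beside 60.3% of all. The members' median difference was 0.12, against 0.00 over all 380.

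Set against miR-181b in the same library, perfect matches of miR-181d came to 12.7 and 13.8% of those of miR-181b in TghuTNF and to 5.99 and 5.55% in WT. On the log2 scale this ratio was -2.98 and -2.85 in TghuTNF, and -4.06 and -4.17 in WT, a difference of 1.20. An exact two-sided permutation test over the 4 libraries gave p = 0.333, the smallest that 2 against 2 allows. In total matches the same ratio was -0.53 and -0.54 in both genotypes, and the difference was -0.0016 (exact permutation p = 1).

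The same share was computed for the other pairs of listed miRNAs found to differ by 1 substitution, as a description. miR-29c differs from miR-29a by C10U, at another position than C12U, and its perfect matches were 0.248% of those of miR-29a in TghuTNF and 0.239% in WT. miR-7b stood at 0.0254% of miR-7a in TghuTNF and 0.0364% in WT, and miR-106a at 0.00613% of miR-17 in TghuTNF and 0.0241% in WT. These pairs also differ at position 10, by A10U and U10A, which are other base changes. They rest on 3 perfect matches of miR-7b in TghuTNF and 5 in WT, and 1 and 4 of miR-106a. Over the summed libraries, miR-181d was at 13.2% of miR-181b in TghuTNF and 5.72% in WT. The other 3 such pairs differ at position 12, as miR-181b and miR-181d do. Of these, miR-196a stood at 72.7% of miR-196b in TghuTNF and 30.0% in WT, so its share was higher in TghuTNF, as that of miR-181d was. The shares of miR-10a to miR-10b (21.8% in TghuTNF and 27.9% in WT) and let-7f to let-7a (65.9 and 71.9%) were lower in TghuTNF. The part of misread bases in the miR-181d count was not tested.

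**Figure D3:**
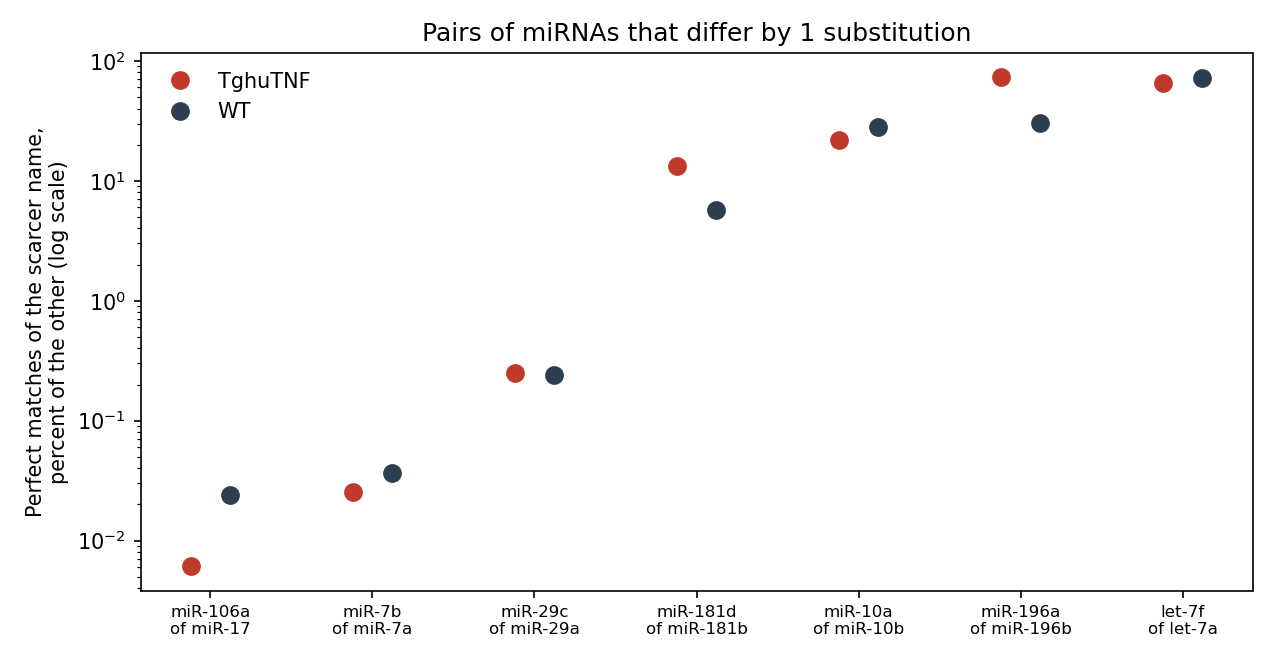
Perfect matches of the scarcer miRNA as percent of those of the other (log scale), summed over the 2 libraries of each genotype, with TghuTNF left of WT. Shown are the 7 pairs of listed miRNAs that differ by 1 substitution and met the conditions on position and counts, not all such pairs. miR-181d of miR-181b stands at 13.2% in TghuTNF and 5.72% in WT, and miR-196a of miR-196b at 72.7% in TghuTNF and 30.0% in WT. miR-29c of miR-29a stands at 0.248% in TghuTNF and 0.239% in WT.

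Reads perfect for miR-181c beyond those perfect for miR-181a are the part of the miR-181c count that miR-181a did not also hold, if every read perfect for miR-181a was also listed under miR-181c, which could not be checked. They numbered 1008 and 968 in TghuTNF, and 357 and 526 in WT. Per 1000000 perfect matches they were 52.3 and 63.8 in TghuTNF and 30.8 and 28.1 in WT, so that both TghuTNF libraries lay above both WT libraries. The ratio of the means was 1.97. This difference of counts was chosen after the values were seen, and it has no test. In the matches with 1 mismatch, miR-181a held 992 and 1948 more than miR-181c in TghuTNF, and 364 and 512 more in WT.

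Together, this miR-181c excess and miR-181d, whose genes are the pair on chromosome 8, made up 3.63 and 4.01% of the family's perfect matches (miR-181a, miR-181b, miR-181d and the miR-181c excess summed) in TghuTNF and 2.17 and 1.80% in WT. miR-181a made up 79.4 and 79.8% in TghuTNF and 78.4 and 80.3% in WT, with overlapping genotypes. miR-181b made up 17.0 and 16.2% in TghuTNF and 19.4 and 17.9% in WT. The family's summed perfect matches of the 5p arm were 3549 and 3624 per 1000000 perfect matches in TghuTNF and 3073 and 3497 in WT. These shares count miR-181c only by its excess over miR-181a. How the reads listed under both names divide between miR-181a and miR-181c was not resolved, so the shares do not give the part of the family that comes from chromosome 8.

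**Figure D4:**
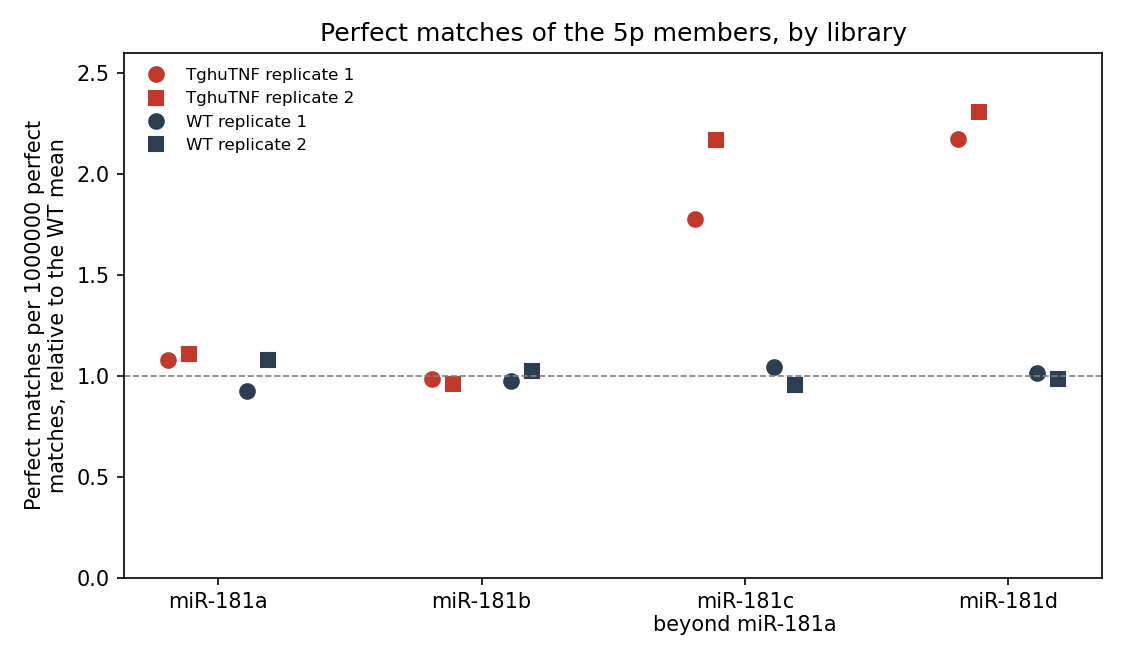
Perfect matches per 1000000 perfect matches of the 5p members in each library, divided by the WT mean of each, with TghuTNF left of WT and a dashed line at the WT mean. miR-181d and the reads of miR-181c beyond miR-181a stand apart from WT in both TghuTNF libraries (1.97 times the WT mean for the surplus of miR-181c), while miR-181a and miR-181b lie near 1.

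The passenger arm miR-181a-1* was scarce and did not pass the test. It had 30.3 and 27.1 TMM-scaled CPM of total matches in TghuTNF and 36.0 and 31.8 in WT, a difference of -0.24 ± 0.23 (adjusted p = 0.529, edgeR). In perfect matches it had 23.8 and 19.7 in TghuTNF, against 31.9 and 28.0 in WT, a difference of -0.46 ± 0.26 (adjusted p = 0.274, edgeR, interval -1.04 to 0.12). On the log2 scale, miR-181a stood above miR-181a-1* by 6.67 and 6.87 in TghuTNF and by 6.19 and 6.54 in WT. The difference of 0.41 ± 0.28 did not pass limma's test (adjusted p = 0.774), and of the 114 arm pairs 0.00% did, although 6 had an unadjusted p below 0.05. Because miR-181a comes from 2 hairpins and miR-181a-1* from 1, this ratio mixes loci. miR-181a-2*, the passenger arm of the other hairpin, had 0 perfect matches in all 4 libraries, where a count of 0 allows up to 0.156 and 0.198 per 1000000 perfect matches in TghuTNF and 0.259 and 0.160 in WT.

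The odds that a match was perfect do not depend on depth, and they gave no call for miR-181d. On the log2 scale its odds were -3.87 and -3.75 in TghuTNF and -4.90 and -4.96 in WT, a difference of 1.12 ± 0.23 (adjusted p = 0.804, limma). For miR-181a, miR-181b, miR-181c and miR-181a-1* the differences lay between -0.53 and -0.03, and the median over the 314 miRNAs tested was -0.19. Of those 314, 0.00% passed the adjusted threshold and 14 had an unadjusted p below 0.05. miR-181d was among these 14 (unadjusted p = 0.00602, limma). TghuTNF replicate 2 stood apart in this measure, with 11.7% of all its matches at 2 mismatches, against 8.21 to 8.73% in the other libraries. Without that library the difference of miR-181d in perfect matches was 1.13, in a fit with 1 TghuTNF library whose spread comes from the WT libraries alone. The part of this library's mismatches in the result was not tested.

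By pattern over the 4 libraries, the closest miRNAs outside the family were listed by root mean square distance of centred log2 CPM, among 437 others and with no test. For miR-181a they were miR-29a*, miR-27a, miR-21, miR-210 and miR-22*, at 0.01 to 0.07 against a median distance of 0.31. For miR-181c they were miR-27a, miR-29a*, miR-21, miR-28* and miR-301a, and for both miR-181b and miR-181d they were miR-674, let-7g, miR-501-3p, miR-27b* and miR-331-3p. For miR-181a-1* they were miR-1964, miR-744, miR-93, miR-193* and miR-188-5p. By perfect matches, a measure added after the values were seen, miR-181d lay closest to miR-129-3p, at 0.05 against a median of 0.64 over 375 others. miR-129-3p had 13.5 and 15.2 TMM-scaled CPM of perfect matches in TghuTNF and 7.03 and 6.42 in WT. The next were miR-1945, miR-365, miR-184 and miR-22, at 0.15 to 0.17.

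Of 13 miRNAs reported to act on TNF or NF-kB signalling, all were tested by total matches, and 4 rose and 1 fell, beside the 13.3% called in either direction over all 442, with a median difference of 0.14 against 0.01 over all miRNAs. miR-146a, which is induced by NF-kB and represses its adaptors, rose by 2.64 ± 0.25 (adjusted p = 7.78e-05, edgeR), and miR-155, an inflammatory miRNA of leukocytes, by 1.40 ± 0.22 (adjusted p = 0.00188, edgeR). miR-31 and miR-223 rose by 1.40 and 2.72, and miR-146b fell by 1.79. miR-223 lay near the filter, at 3.26 and 2.40 TMM-scaled CPM in TghuTNF and 0.609 and 0.294 in WT. miR-21, the most abundant of the list, differed by 0.12 ± 0.14 (adjusted p = 0.622, edgeR). The 5 miR-181 names were not called in that fit.

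Bulk libraries cannot tell apart more cells of a type from more RNA per cell. Markers of the mesenchymal lineage were abundant, with 7 of 7 tested, 1 higher (miR-22) and 1 lower (miR-214), and a summed level of 290641 and 314835 TMM-scaled CPM in TghuTNF and 285584 and 298797 in WT. Of 7 blood cell markers 4 were tested and miR-223 rose. Their summed level was 99.5 and 108 TMM-scaled CPM in TghuTNF and 75.0 and 54.3 in WT, led by miR-342-3p, with miR-142-3p at 20.8 and 16.3 in TghuTNF and 12.7 and 5.14 in WT. Of 6 neuronal markers 5 were tested and miR-138 rose, with a sum of 460 and 441 in TghuTNF and 325 and 279 in WT, led by miR-129-5p. That miRNA made up most of the sum (mean 365 in TghuTNF and 229 in WT), and miR-9 alone of those tested lay lower (-0.28, not called). Endothelial markers (2 of 2 tested, miR-126-3p lower) summed to 68.8 and 66.7 in TghuTNF and 127 and 108 in WT, and epithelial ones (4 of 7 tested, miR-203 lower) to 36.5 and 30.3 in TghuTNF and 67.6 and 70.6 in WT. The lower epithelial sum was that of miR-203 (mean 22.5 in TghuTNF and 60.7 in WT), since the differences of miR-141, miR-200b and miR-200c were 0.46, 0.44 and 0.30, none of them called, and the list's median was 0.37. Muscle markers (5 of 5 tested, 0 called), led by miR-206, summed to 2055 and 1784 in TghuTNF and 2426 and 3008 in WT. Of 4 cartilage miRNAs, miR-140 and miR-140* rose and miR-455 and miR-455* fell, and their sum, led by miR-140*, was 18526 and 26041 in TghuTNF and 12315 and 13109 in WT. The blood cell, neuronal and cartilage sums were higher in both TghuTNF libraries than in both WT libraries, as perfect miR-181d was, and their part in its difference was not tested. These sums are of total matches, by which miR-181d differed by 0.07. The 7 markers below the filter, among them miR-124 of neurons and miR-451 and miR-144 of red cells, had 0 to 10 matches in a library.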

How the data were processed

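The deposited counts are whole-number matches per miRNA and library. Per the file headers, the authors matched reads of length 37 to 707 mouse miRNAs with mimap 3d, allowing up to 2 mismatches with a hash length of 9, and split each count by 0, 1 and 2 mismatches. Per the labels' protocols, RNA of 20 to 30 and 70 to 100 nucleotides was cut from gels. The miRBase release is not given in the sources used here, nor is adaptor trimming or the rule for reads that match several names.

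Total and perfect matches were each fitted over all miRNAs (edgeR 4.0.16, R 4.3.3: default low-count filter, TMM factors, quasi-likelihood test, 2 against 2 libraries, Benjamini-Hochberg threshold 0.05). Arm ratios and odds (50 matches in every library, pseudocount 0.5) were tested with limma 3.58.1. DESeq2 1.42.0, other scalings, filters and left-out libraries were alternatives. The methods were tested on simulated data. Named were all members, the 5 closest miRNAs to each, all with the same seed, and the called and most abundant miRNA of each list. Members and lists were chosen with earlier results of these data known. A count of 0 allows 3 counts, and floors and intervals of shares cover counting error only. Since a genotype has 2 cultures, p-values rest on the spread between those.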

Additional observations from a re-analysis of the deposited data

How the results depend on the processing

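By total matches no member was called under any of its 11 or 12 alternatives, the move to perfect matches aside, and by perfect matches miR-181d was called under 9 of 11 (highest adjusted p 0.136, lowest 1.27e-05, edgeR, limma or DESeq2) and no other member under any. Leaving out 1 library each put miR-181d at 1.12 to 1.20, and the call was lost without either WT library, where the lone WT library is assumed to vary like the TghuTNF ones. Without the low-count filter 39 miRNAs were called higher by total and 31 by perfect matches, in place of 21 and 19. Under a minimum mean of 100 CPM, which tests fewer miRNAs, 8 were called higher and 6 lower by total matches, and 12 higher and 6 lower by perfect matches, and miR-181d itself was not tested. Upper quartile scaling, under which the median over all miRNAs was -0.10 in total and -0.28 in perfect matches, gave 48 lower by perfect matches in place of 31. Left-out libraries gave 17 to 61 higher and 29 to 92 lower by total matches, and 6 to 41 higher and 15 to 52 lower by perfect matches. The highest count came each time without TghuTNF replicate 1 and the lowest without a WT library, and the cause was not tested.

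Differences near 0 changed sign, with no call. In total matches, miR-181b and miR-181d went to -0.037 and -0.038 under upper quartile scaling, and miR-181b to -0.051 by perfect matches, where miR-181d was 1.15. Left-out libraries put miR-181b at -0.037 to 0.081 and miR-181d at -0.046 to 0.083. In perfect matches, miR-181a and miR-181c went to -0.16 and -0.14 under upper quartile scaling, above that scaling's median, and miR-181b to 0.0085 without the filter and 0.024 under the CPM minimum of 100. Log2 ratios changed sign too: miR-181b to miR-181a ran from -0.195 to 0.0021 and miR-181c to miR-181a from -0.064 to 0.00046 over left-out libraries. miR-181c to miR-181a was 0.013 by perfect matches. miR-181d to miR-181b ran from -0.0091 to 0.0060 over left-out libraries and was 1.20 by perfect matches, which count only matches listed with no mismatch.

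The replicate numbers did not pair the libraries (correlation of same-numbered deviations -0.088). With a replicate block 34 miRNAs were called higher by total matches, and miR-181d stood at 1.15 by perfect matches. With 2 cultures a genotype, small differences could not be detected, and miR-181c could not be counted apart from miR-181a.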
